A study of Mus musculus with 8 samples.

Results

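The 10 genes described here encode subunits of the BAF and PBAF complexes, the SWI/SNF family of chromatin remodellers, and they were taken by name from a RefSeq annotation that holds 34610 protein-coding and lncRNA genes. They are Smarca4, Smarca2, Smarcb1, Smarcc1, Smarcc2, Smarce1, Arid1a, Arid1b, Arid2 and Pbrm1, and all 10 were found. The samples were mouse embryonic fibroblasts (MEFs), connective tissue cells grown from embryos, assayed by NOMe-seq. In NOMe-seq the enzyme M.CviPI methylates cytosines that follow a guanine (GpC) where DNA is free of nucleosomes and bound proteins, a mark which bisulfite conversion and sequencing then read out. There were 8 libraries in 4 groups of 2: control MEFs (day 0) and MEFs on day 1 of reprogramming induced by Etv2, an ETS transcription factor of endothelial and blood development, each without the enzyme (untreated) and with it (treated). All groups share the MEF background. The sources used here do not give how Etv2 was delivered or which allele or vector carried it, nor whether replicate libraries are separate cultures. P-values therefore measure the spread between these samples, which may be technical.

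SWI/SNF complexes use ATP to slide or evict nucleosomes. Smarca4 (BRG1) and Smarca2 (BRM) are the alternative ATPases, and Smarcb1, Smarcc1, Smarcc2 and Smarce1 belong to the shared core. Arid1a and Arid1b are alternative DNA-binding subunits that define BAF, while Arid2 and the multi-bromodomain protein Pbrm1 belong to PBAF. In fibroblasts these complexes keep enhancers accessible, and several reprogramming factors are known to recruit them. The values below describe the chromatin of the subunit genes themselves, not the amount or the activity of the proteins.

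Every site in the files that fell inside a RefSeq promoter window was a GpC cytosine not followed by G, from 6492 of 6492 to 10239 of 10239 sites by library, so CpG sites were kept out of the calls in these windows. Sites elsewhere could not be read against a sequence here. The promoters of Smarcb1, Smarcc2 and Smarcc1 show what the enzyme can reach and how little of it was read. Each is the stretch before the annotated start and outside the gene (RefSeq, GRCm38.p6, which is mm10), 5′ to 3′ along the gene, with the cytosines read in any library in capitals. A capital G marks a cytosine read on the opposite strand.
Smarcb1, chr10:75921615-75921864, minus strand: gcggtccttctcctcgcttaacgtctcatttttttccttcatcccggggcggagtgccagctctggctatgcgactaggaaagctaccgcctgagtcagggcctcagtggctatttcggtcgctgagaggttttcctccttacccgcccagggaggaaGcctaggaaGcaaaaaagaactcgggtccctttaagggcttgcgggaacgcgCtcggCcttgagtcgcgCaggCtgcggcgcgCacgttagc
Smarcc2, chr10:128458986-128459181, plus strand: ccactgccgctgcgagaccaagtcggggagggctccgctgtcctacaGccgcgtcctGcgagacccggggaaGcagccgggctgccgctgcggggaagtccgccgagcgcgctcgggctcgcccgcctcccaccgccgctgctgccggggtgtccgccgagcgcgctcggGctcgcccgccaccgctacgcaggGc
Smarcc1, chr9:110131774-110132023, plus strand: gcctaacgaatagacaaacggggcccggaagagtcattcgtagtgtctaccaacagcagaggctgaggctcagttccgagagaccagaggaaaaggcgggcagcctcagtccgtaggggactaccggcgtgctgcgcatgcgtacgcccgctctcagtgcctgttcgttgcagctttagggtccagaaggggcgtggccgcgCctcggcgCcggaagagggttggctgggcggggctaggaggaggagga
The Smarcb1 stretch holds 35 readable cytosines, of which 7 were read. On day 1 the first treated library read 5 of them, with 14 of 15 reads methylated, while the first untreated library read the other 2, with 0 of 7. In the Smarcc2 stretch 4 cytosines were read with the enzyme, all in the first day 0 library, and 6 of 12 reads were methylated. The cytosine at position 171 of that stretch, counted from 1 at its 5′ end, was methylated in 3 of 3 reads, and those at positions 48, 58 and 73 in 1 of 3 each. A further cytosine was read there without the enzyme on day 1, with 0 of 3 reads methylated. In the Smarcc1 stretch only 2 cytosines were read, both without the enzyme on day 0, and 0 of 6 reads were methylated. The second of them, at position 211, opens a match to CCGGAA, the core that ETS factors bind; another match starts at position 25. Over the 250 bases before each annotated start, searched on both strands, CCGGAA was present for Smarcc1, Arid1a, Pbrm1 and Smarca2, in 4 of the 9 promoters of 8 members that the table holds. Of all 32851 promoters 12.03% hold it. A match is a run of letters, not a bound site, and no cytosine inside these matches was read in a treated library.

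Coverage was thin, and almost no site was read more than once across libraries. The members held 462 and 511 sites in the day 0 treated libraries, 712 and 675 in the day 1 treated ones, 521 and 463 in the day 0 untreated ones and 838 and 908 in the day 1 untreated ones, of 439527 to 1012656 sites per library in all. No member site had more than 5 reads, and each site in the files had at least 3. Of 4911 distinct member sites, 4739 were read in a single library, and none was read in all 4 treated libraries. The 2 day 0 treated libraries shared 0 sites and the 2 day 1 treated ones shared 7. Replicates and days were therefore compared over different cytosines of the same gene. Reads on neighbouring sites come from the same DNA fragments, so the treated reads of the members rested on 115 to 196 covered stretches per library (sites at most 150 bp apart). Counts of reads below add up the reads at each site, so 1 fragment can count at several sites. Intervals and limits below cover counting error only, with every such read taken as independent. They are therefore too narrow where sites share fragments.

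With M.CviPI the 10 loci had higher GpC methylation than without it on both days, although at Smarce1 on day 0 the background was barely read. A locus is the gene with 1 kb on each side. Pooled over the 10 genes, the treated level was 32.5% (461 of 1420 reads, 95% exact interval 30.03 to 34.97) and 26.5% (415 of 1567, 24.31 to 28.74) in the day 0 libraries. It was 32.8% (728 of 2222) and 29.4% (621 of 2110) in the day 1 libraries. The untreated libraries had 1.84% and 1.43% on day 0 and 1.03% and 0.803% on day 1. No treated library overlapped an untreated one. Over the loci of all genes the treated level was 29.3% on day 0 and 30.5% on day 1, and the untreated level 2.11% and 1.03%.

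In the order of the 10 treated levels the ATPase genes Smarca4 and Smarca2 came the sixth and the ninth on day 0, and the ninth and the sixth on day 1. Smarca4 (chromosome 9, 21616106 to 21704230) had 24.9% and 34.5% in the treated libraries of day 0 and 28.5% and 18.8% in those of day 1. Its untreated libraries had 6.96% (8 of 115 reads) and 0.917% (1 of 109) on day 0 and 0.556% and 1.74% on day 1, so its first day 0 untreated library stood above the others. Smarca2 (chromosome 19, 26605073 to 26778321) had 21.1% and 24.5% on day 0 and 29.4% and 26.5% on day 1. Both day 1 libraries of Smarca2 were above both day 0 libraries. The share of all loci whose treated libraries separate by day in this way was not counted. With 2 libraries a group, libraries that do not differ by day can also separate. Such separations, here and below, are therefore only described. Without the enzyme Smarca2 had 0.427% to 1.41% in the 4 libraries. The Smarca2 locus meets those of 3 other annotated genes, and reads in the shared stretches count for both. The loci of Smarcb1 (Derl3, Mmp11) and Pbrm1 (Gnl3, Smim4) each meet those of 2 other genes. Those of Smarcc2 (Myl6), Smarce1 (Krt222) and Arid1b (Gm34854) each meet that of 1.

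Among the core subunits the libraries of a group differed most. Smarcb1 (chromosome 10, 75896769 to 75921614), the small core subunit lost in rhabdoid tumours, had 25.5% and 12.8% on day 0 and 53.0% and 26.8% on day 1. The groups did not overlap, but each library had only 51 to 112 reads in 4 to 8 stretches. In its gene body alone Smarcb1 had 25.5% and 18.5% on day 0 and 43.8% and 26.6% on day 1. Smarcc1 (chromosome 9, 110132024 to 110240178), a scaffold subunit, had 33.3% and 13.3% on day 0 and 38.2% and 21.4% on day 1, so the days overlapped. Its paralog Smarcc2 (chromosome 10, 128459182 to 128490591) had 43.3% and 37.5% on day 0 and 16.7% and 35.7% on day 1, with no overlap. In the first day 0 library 27 of its 30 reads lay at the ends. In the Smarcc2 body the days overlapped, with 33.3% (1 of 3 reads) and 37.5% on day 0 and 16.7% and 41.5% on day 1. Smarce1 (chromosome 11, 99209047 to 99231017), the HMG-box subunit, had 51.7% and 21.2% on day 0 and 44.4% and 61.1% on day 1, on 18 to 33 reads per library. Without the enzyme on day 0 it had 0 of 9 reads methylated, which allows up to 33.3%. The pooled day 0 treated level of Smarce1, 35.5%, was 1.06 times that limit. Its second treated library, at 21.2%, lay below the limit, so no smallest fold can be given.

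The BAF ARID genes Arid1a and Arid1b had treated levels as follows, and neither passed the test between the days given below. Arid1a (chromosome 4, 133679008 to 133756769) had 45.9% (50 of 109 reads) and 37.5% (9 of 24) on day 0 and 23.6% (17 of 72) and 24.7% (41 of 166) on day 1. Both day 1 libraries lay below both day 0 libraries. Arid1b (chromosome 17, 4994297 to 5347656), the longest member at 353 kb, had 31.1% (183 of 588 reads) and 24.3% (155 of 639) on day 0 and 35.2% (393 of 1116) and 31.5% (311 of 987) on day 1. The day 1 libraries of Arid1b were both above those of day 0 over the locus. In its gene body the days overlapped, with 33.1% and 24.1% on day 0 and 35.2% and 31.7% on day 1. Arid1b alone held 41.1% of the treated reads of the members on day 0 and 48.5% on day 1.

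Of the PBAF genes, Arid2 (chromosome 15, 96287522 to 96405463) had 44.5% and 30.5% on day 0 and 24.3% and 31.4% on day 1. In the first of these libraries the gene's ends held 90 of 128 reads, with 49 methylated. The Arid2 locus meets that of the gene Gm38469, and reads in the shared stretch were not counted apart. In the gene body Arid2 had 21.1% and 29.6% on day 0 and 24.3% and 29.3% on day 1, and the days overlapped. Pbrm1 (chromosome 14, 31019138 to 31121592), which reads acetylated histones through its bromodomains, had 44.4% (16 of 36 reads) and 53.8% (7 of 13) on day 0 and 42.0% and 30.9% on day 1. The day 1 libraries of Pbrm1 were both below those of day 0. Of the untreated libraries of day 0 only the first read Pbrm1, with 0 of 45 reads methylated, which allows a level of up to 6.67%. The pooled day 0 treated level of Pbrm1, 46.9%, was 7.04 times that limit, without the error of the treated level.

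**Figure D1:**
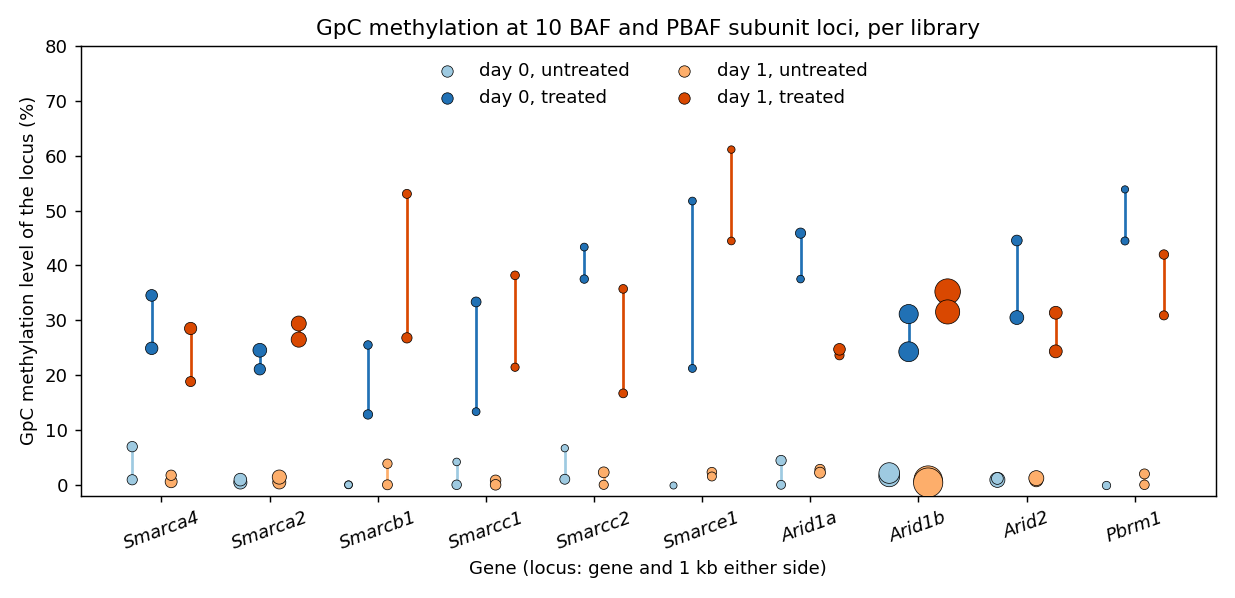
GpC methylation level (%) of each of the 10 loci in each library, with point area growing with reads and a line joining the 2 libraries of a group. Treated points lie between 12.8% and 61.1% and untreated points at or below 6.96%, and the spread between libraries is widest in the small loci.

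The order of the treated levels changed between the days, and most neighbours in it could not be separated. On day 0 it ran from Pbrm1 (46.9% pooled over both libraries), Arid1a (44.4%), Smarcc2 (39.7%), Smarce1 (35.5%) and Arid2 (35.0%) to Smarca4 (29.3%), Smarcc1 (28.6%), Arid1b (27.5%), Smarca2 (23.3%) and Smarcb1 (17.8%). The libraries of each neighbouring pair overlapped on that day. On day 1 it ran from Smarce1 (51.1%), Pbrm1 (36.9%), Smarcb1 (36.5%) and Arid1b (33.5%) to Smarcc1 (30.9%), Smarca2 (27.9%), Arid2 (27.8%), Smarcc2 (25.9%), Smarca4 (25.2%) and Arid1a (24.4%). There Smarce1 did not overlap Pbrm1, and every other neighbouring pair overlapped. Smarcb1 stood in the last place on day 0 and the third on day 1, and Arid1a in the second and then the last. The 3 tested loci whose 8 log2 odds lay closest to those of the members pooled were Mcf2l, Ablim1 and Slc39a11, with Euclidean distances of 0.401, 0.491 and 0.533 over 8 libraries.

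The test of treated against untreated libraries asks at which loci the readout stood above background. It was fitted in edgeR (quasi-likelihood on methylated and unmethylated reads, all 8 libraries, Benjamini-Hochberg adjustment) over the 7992 loci with at least 10 reads in every library. Of the members 8 could be tested; Smarce1 and Pbrm1 had no reads in the second day 0 untreated library. Treatment raised all 8 on both days, where 96.5% of all loci were called on day 0 and 99.6% on day 1, so the share is that of the background. The difference is given as log2 odds of methylation, with a standard error (SE) worked back from the test. This SE is the size of the change over the square root of the quasi-likelihood F, and is approximate. For the day change net of untreated, given below, the SE was 1.08 at Arid2 and 1.83 at Smarcb1. These lie below the 1.27 and 2.59 of their untreated change alone. For the ATPases the difference on day 0 was 3.33 (SE 0.654, edgeR adjusted p = 1.03e-06) at Smarca4 and 5.37 (SE 0.67, edgeR adjusted p = 1.44e-14) at Smarca2. On day 1 the differences were 4.78 and 5.23. Arid1b had 4.34 (SE 0.345) on day 0 and 6.31 (SE 0.356) on day 1, and Arid2 5.81 and 5.10. Arid1a had 4.71 and 3.58, Smarcc1 4.97 and 6.33, and Smarcc2 5.04 and 4.44. The median over the 8 was 5.002 on day 0 and 5.05 on day 1, beside 4.404 and 5.52 over all loci. At Smarcb1 no untreated read of day 0 was methylated (0 of 57, which allows up to 5.26%). Its pooled day 0 treated level, 17.8%, was 3.39 times that limit, without the error of the treated level. On day 0 the calls of Smarcc1 and Smarcc2 ended without the second untreated library, at 2.92 (edgeR adjusted p = 0.0701) and 3.11 (0.0655). Without the first untreated library of day 0 the value of Smarca4 was 5.39; those of Arid1a and Smarcc1 then, and of Smarcb1 and Smarcc2 without the first and second untreated library of day 1, rest on an arm with 0 methylated reads and give no size. In limma the day 0 value of Smarcc1 was 3.29, still past the threshold.

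Between day 0 and day 1 the treated libraries passed the threshold at none of the tested members. In edgeR 0 of 7992 loci were called (percent called 0; 254 had an unadjusted p under 0.05), and limma also called 0, and among the members 1, Smarcb1, had an unadjusted p under 0.05. Its change was 1.47 on the log2 odds scale (SE 0.728, adjusted p = 0.999), higher than at 97.7% of the loci. Arid1a had -1.24 (SE 0.655, adjusted p = 0.999), lower than at all but 2.67% of them. Arid1b had 0.39 (SE 0.295), Smarca2 0.38, Smarcc1 0.30, Smarca4 -0.40, Arid2 -0.60 and Smarcc2 -0.94. Of the 8 members 4 lay above 0 and 4 below, with a median of -0.05 beside 0.10 over all loci. Smarcc1 turned to -0.19 without the second day 0 treated library and to -0.34 without the first day 1 treated library. A p that misses the threshold does not show that the days were alike. The standard errors of 0.295 to 0.783, worked back from the test, give the precision only roughly.

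Without the enzyme Arid1b fell, the only member of 8 to pass the threshold. Its untreated level was 1.54% (11 of 712 reads) and 2.14% (15 of 700) on day 0 and 0.851% (12 of 1410) and 0.402% (6 of 1494) on day 1. Both day 1 libraries lay below both day 0 libraries. The change was -1.58 on the log2 odds scale (SE 0.412, edgeR adjusted p = 0.0176). Of all loci 3.19% were called in this comparison, 3.18% downward (254) and 0.0125% upward (1), around a median of -0.96, and 34.8% of the loci had a lower value than Arid1b. Among the other 7 tested members 3 lay above 0 and 4 below, and none was called. Smarcb1, counted above 0, had 0 of 57 untreated reads methylated on day 0, so its value gives no size. The rest had 1 (Smarcc1) to 9 (Smarca4) methylated reads a day. The call at Arid1b ended without the second day 0 untreated library (adjusted p = 0.292), without the second day 1 untreated library (0.269), with the 4 untreated libraries fitted alone (0.289) and with each library centred on its median log2 odds (-0.52, 0.860).

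Net of the untreated libraries, Arid1b rose by 1.97 on the log2 odds scale (SE 0.506, edgeR adjusted p = 0.0141), the only member called of 8. Of all loci 2.09% were called, all upward, around a median of 1.04. This value joins the fall of the untreated level with the treated change of 0.39, which did not pass on its own (edgeR adjusted p = 0.999). The call ended in limma (1.99, adjusted p = 0.0803), after centring (0.82, edgeR adjusted p = 0.864), and without the second day 0 untreated (0.122), the second day 0 treated (0.124), the second day 1 untreated (0.0781), or the first or second day 1 treated library (0.228 and 0.151). Below 0 were 5 of the 8 members, with a median of -0.37. Smarcb1 is among the 5, and with 0 methylated reads in its day 0 untreated arm its value gives no size.

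**Figure D2:**
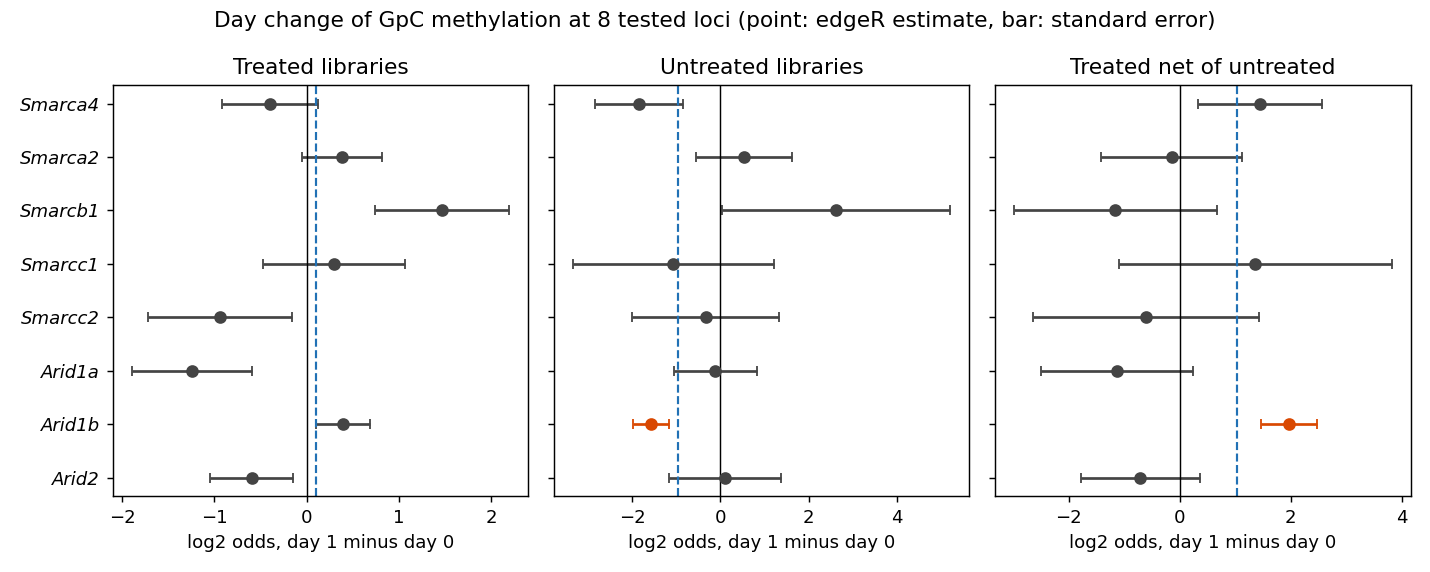
Change of GpC methylation from day 0 to day 1 (log2 odds) at the 8 tested loci in treated libraries, in untreated libraries and net of untreated. Points are edgeR estimates, and bars are approximate standard errors worked back from the quasi-likelihood F. The dashed line is the median of all 7992 loci; orange marks Arid1b, the member past the threshold at -1.58 and 1.97.

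Pooled over the 10 genes, ends had a higher level than bodies in every treated library, but on few reads and not gene by gene. Most of the gap came from Arid2 on day 0 and, in the first day 1 library, from Smarcb1. At the ends (1 kb on each side of both annotated ends) the members pooled had 41.0% (87 of 212 reads) and 29.8% (25 of 84) on day 0 and 59.0% (23 of 39) and 33.3% (23 of 69) on day 1. In the bodies they had 31.0% and 26.3% on day 0 and 32.3% and 29.3% on day 1. The ends lay above the bodies by 10.1 and 3.46 points on day 0 and by 26.7 and 4.03 points on day 1. Over all genes the differences were 7.55 and 7.07 points on day 0 and 4.72 and 4.59 on day 1. On both days the first treated library of the members lay above its all-gene value and the second below. Without Arid2 the pooled day 0 difference fell from 9.45 to 1.001 points, with ends at 29.4% (57 of 194 reads) and bodies at 28.4%. The single libraries without Arid2 had -0.135 and 0.777 points on day 0 and 25.8 and -2.98 on day 1. Without Smarcb1 the pooled day 1 difference was 4.82 points, with 10.8 in the first library and 3.88 in the second. Without Arid1b the pooled difference was 15.7 points on day 0 and 18.9 on day 1. Gene by gene the ends lay above the body in 5 and below it in 3 of the 8 genes read at both on day 0, and in 3 and 3 of 6 on day 1. Arid1b ends, pooled over libraries, were the lower on both days, at 14.3% (9 of 63 reads) against 28.3% and 23.8% (5 of 21) against 33.6%. The first day 0 library held 54 of the 63 reads, with 6 methylated. In the second day 0 library the ends were the higher, at 33.3% (3 of 9) against 24.1%. Untreated ends had 2 of 305 methylated reads on day 0 and 4 of 297 on day 1. The highest single value came from Smarcb1, where 14 of 18 end reads were methylated in the first day 1 treated library, the promoter cytosines printed above among them. In the second day 0 treated library 0 of 24 were, with 3 reads at the start and 21 at the far end. Smarce1 had 15 of 29 and 5 of 15 end reads methylated on day 0 and 4 of 6 and 6 of 9 on day 1. Smarcc1 and Pbrm1 had no treated read at their ends, and Smarca4 had 6, all on day 0.

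**Figure D3:**
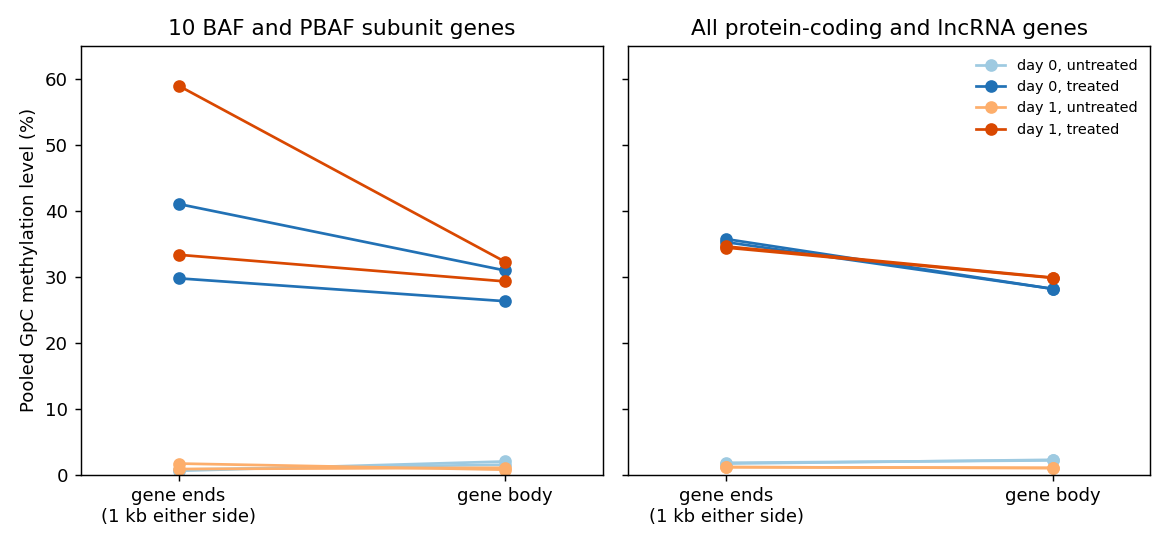
Pooled GpC methylation level (%) at gene ends and in gene bodies, with 1 line per library, for the 10 subunit genes and for all genes. All 4 treated lines fall from ends to body in both panels, by 3.46 to 26.7 points in the members. The pooled day 0 gap is 1.001 points when Arid2 is left out. The 26.7 points, in the first day 1 library, are 10.8 when Smarcb1 is left out.

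For the 8 members whose strand the promoter table gives, which leaves out Arid2 and Smarce1, the body was divided into 3 equal parts from the start. On day 0 the first, middle and last parts had 29.99%, 29.3% and 26.2%, and on day 1 32.8%, 30.5% and 30.2%. In the first part the day 0 libraries had 23.8% and 34.9%, further apart than the parts were. The start ends of these 8 had 26.8% on day 0 (24.7% and 33.3% by library) and 41.2% on day 1 (76.2% and 16.7%). Their far ends had 14.8% on day 0, read in the second library alone, and 23.3% on day 1 (25.0% and 22.2%). Apart from the first day 1 library and the second day 0 library at the start, these ends lay below the parts of the body pooled over the same day. At sites with exactly 3 reads, the treated libraries of the members had 0 methylated reads at 33.5% to 40.7% of sites and 3 of 3 at 2.68% to 4.91%. Over all nuclear sites these shares were 36.2% to 38.5% and 3.42% to 3.65%.

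Windows of 1 kb read on both days set the days side by side within the same kilobase, though rarely at the same cytosines: the treated libraries of the 2 days shared 12, 6, 8 and 0 member sites, pair by pair. Of 466 windows with treated reads in the members, 62 had at least 6 on each day, in 9 of the 10 genes. The day 1 level was higher in 36, lower in 23 and equal in 3, and the pooled level went from 27.1% to 32.8%. Arid1b supplied 24 of the windows, 17 higher and 6 lower on day 1, and went from 25.2% to 44.1% over them. Without Arid1b the other 38 windows had 19 higher and 17 lower and went from 28.5% to 25.2%. The 4 windows of Smarcb1 were all higher on day 1 (13.3% to 35.1%), while Smarca4 went from 31.9% to 16.5% over 8 windows. Without the Arid1b window that had the most reads, the pooled level of the other 61 went from 25.7% to 29.0%. No test was made.

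The most methylated window was chr17:4995001-4996000 in Arid1b, centred 1.203 kb after the gene's first annotated base at 4994297. The promoter listed for Arid1b, 4994824 to 4995073, lies inside the gene and reaches into this window. Its reads lay partly at the end and partly in the body. There 32 of 68 treated reads were methylated on day 0 and 54 of 70 on day 1, each in the first library alone, against 1 of 55 and 0 of 9 untreated reads. Next came chr17:5084001-5085000 in the Arid1b body (5 of 6 and 2 of 6 reads) and chr11:99230001-99231000 at an end of Smarce1 (15 of 29 and 6 of 9). The least methylated were chr19:26655001-26656000 in Smarca2 (1 of 13 and 0 of 9), chr17:5240001-5241000 in Arid1b (0 of 6 and 1 of 9) and chr15:96308001-96309000 in Arid2 (1 of 31 and 4 of 12), all in gene bodies. Each of these 6 windows was read by 1 treated library a day. Arid1b thus held windows at both extremes.

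**Figure D4:**
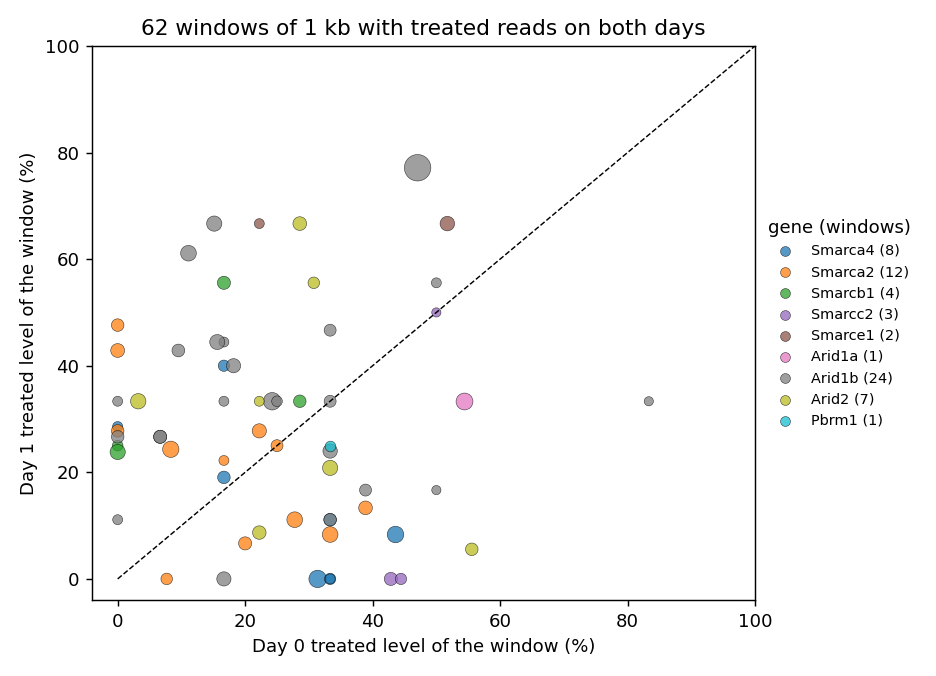
Treated GpC level (%) of 62 windows of 1 kb on day 0 (horizontal) and day 1 (vertical), with point area growing with reads and colour giving the gene. The dashed line marks equal levels; 36 windows lie above it and 23 below, and the largest point is the Arid1b window near the start.

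Genes of other remodeller subunits were taken from 2 lists. Of 21 further SWI/SNF subunit genes 10 could be tested, and treatment raised all 10 on both days; of 26 other remodeller ATPases and partners 17 could be tested, with 16 raised on day 0 and 17 on day 1. Bicral, a subunit of the non-canonical BAF complex, had 22.4% and 32.3% in the treated libraries of day 0 and 28.0% and 28.1% in those of day 1 (log2 odds difference from untreated 3.68, SE 0.465, and 5.34, SE 0.481). Bptf, the largest subunit of the ISWI complex NURF, had 37.3% and 36.8% on day 0 and 30.7% and 18.9% on day 1. Between the days 0 of the 27 were called in the treated, the untreated or the net comparison in edgeR. At an unadjusted p under 0.05 there were 0 and 1 of the first and second list in the treated, 3 and 1 in the untreated, and 2 and 1 in the net comparison. Over all 7992 loci the counts were 254, 1172 and 1138, and the lists are too small to set apart from these. With treated libraries the medians were 0.12 and 0.06 on the log2 odds scale, beside 0.10 over all loci. In the untreated libraries they were -1.11 and -0.63, beside -0.23 for the members and -0.96 over all loci.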

How the data were processed

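NOMe-seq was deposited for 8 libraries, with 439527 to 1012656 sites and 1693307 to 3577740 reads over sites each, on mm10 per the submitters' processing notes. In each file the authors gave every cytosine a fraction of methylated reads, rounded to 2 decimals, and the deposited count of reads over it; both were read from the values, since fraction times count was whole within rounding at 100% of sites. For the aligner, caller, filters and duplicate handling: not given in the sources used here. Methylated reads per site were the rounded product. Sites over 100 reads were left out, and reads were pooled per gene, over RefSeq coordinates (GRCm38.p6) with 1000 bp on each side. Strand came from the RefSeq promoter table, which lacks Smarce1 and Arid2. Pooled levels have exact Clopper-Pearson 95% intervals and no test.

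Methylated and unmethylated counts per locus were fitted in edgeR 4.0.16 (R 4.3.3), with a term per library and a mean per group, a minimum of 10 reads in each of the 8 libraries and a threshold of 0.05 after Benjamini-Hochberg adjustment over all 7992 loci; library size enters through the library terms, so no size factors apply. Limma 3.58.1 on log2((methylated + 1)/(unmethylated + 1)) was an alternative. The fit was tested on simulated data. Python 3.11.15 with numpy 2.4.6, pandas 2.3.3 and scipy 1.17.1 did the rest.

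The genes, lists and tests were chosen with earlier results of these data known. All 10 members are named; of other remodeller genes up to 5 with the smallest p past the threshold per comparison could be named; windows are the 3 highest and 3 lowest with at least 6 treated reads on each day; the 3 nearest loci go by Euclidean distance of log2 odds with 0.5 added to both counts.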

Additional observations from a re-analysis of the deposited data

Results flagged for a closer look

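The effect of the day differed between treated and untreated libraries at Arid1b, by a test of the difference itself: the net change was 1.97 on the log2 odds scale (edgeR adjusted p = 0.0141), with a treated change of 0.39 and an untreated change of -1.58. This call held in 8 of 15 alternatives and ended in limma (adjusted p = 0.0803), after centring each library, and on leaving out any of 5 libraries. Over all loci the median net change was 1.04. Arid1b had 700 to 1494 reads in each untreated library, more than any other member; the part of depth in the call was not tested.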

How the results depend on the processing

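Pooled levels of the 10 genes moved by more than the spread between libraries under these settings. With sites of at least 4 reads alone, the loci had 0.924% (day 0 untreated), 0.420% (day 1 untreated) and 36.0% (day 1 treated), the ends 1.69% (day 0 untreated) and 60.0% (day 0 treated), the bodies 0.830%, 0.334% and 36.0%, and the day 0 ends lay 34.6 points above the bodies. In windows with treated reads on both days the untreated loci had 0.510% on day 0, the untreated ends 1.85% and 0%, and the untreated bodies 0.296% and 1.11%. Ends of 0.5 kb had 0% untreated on both days and ends of 2 kb 0.471% and 2.55%. Without Arid1b, an alternative chosen after seeing the data, the values were 1.24% (day 1 untreated loci), 0.376% (day 0 untreated ends), 1.21% and 28.2% (day 1 bodies, untreated and treated) and 15.7 points (day 0 ends over bodies). Without Arid2, also added after seeing the data, the day 0 treated ends had 29.4% and lay 1.001 points above the bodies. Leaving out 1 library put the day 0 treated ends between 29.8% and 41.0% and their difference from the bodies between 3.46 and 10.1 points.

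Centring each library on its median removes the effect of the enzyme by construction: 21 loci and 0 members were then called for treatment on day 0 and 28 and 0 on day 1. Values that reversed were -0.71 at Smarca4 on day 0 and -0.066 at Smarcb1, -0.63 at Smarcc2, -0.043 at Arid2, -1.56 at Arid1a and -0.30 at Smarca4 on day 1. With a minimum of 1 read 12096 loci were called on day 1, since more were tested. Smarcc1 in the treated comparison of the days ranged from -0.34 to 1.48 when 1 library was left out, turning at -0.19 and -0.34. The 4 treated libraries alone gave 3 calls, 0 of them members. The untreated comparison gave 1010 calls in limma, 14 after centring and 13 with its 4 libraries alone (0 members in the last 2), and 120 to 175 with 1 library left out (0 to 1 members). The net comparison gave 1 call in limma and 4 after centring (0 members in both), and 9 to 153 with 1 library left out (0 to 1 members). Same-numbered libraries did not deviate together (r from -0.0208 to 0.0218). Since libraries read mostly different cytosines on few reads, this cannot tell whether the numbers pair samples. With a replicate block the net count was 99, the other counts stayed within 1.5 times, and no call of a member changed. The causes were not tested. Values at single members were tallied for the treatment comparisons and the treated day comparison. For the untreated and net day comparisons Arid1b alone was tallied. Of the values tallied, 365 kept direction and side of the threshold, 23 lost the threshold and 8 reversed. Depth was lowest at Pbrm1, with 13 reads in the second day 0 treated library, and at Smarce1, with 18 to 33 treated reads per library.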
